A study of Mus musculus with 8 samples.

Results

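Acetylation of histone H3 at lysine 27 (H3K27ac) was compared between fasted and fed mice that had all received tetracycline, an antibiotic that reduces intestinal bacteria. The material was small intestinal crypt epithelium, shaken off in EDTA and made into single cells with trypsin, from male C57BL/6J mice 9 weeks of age, profiled by CUT&Tag, which uses an antibody to bring a transposase to marked chromatin and sequences the fragments it tags. The group Fed_(+Tetra) was fed and the group Fast_(+Tetra) was fasted for 24 h, and both had been treated with tetracycline for 21 days. Each group was 1 sample with 2 peak lists, so the comparison rested on 2 of the 8 samples and 4 of the 16 lists of the study, the others being H3K9ac lists and lists of mice without tetracycline. The labels do not say whether lists 1 and 2 of a sample came from different mice; the spread between them may be technical, and each list's value is therefore given.

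Regions were made by merging overlapping peaks of the 4 lists on chromosomes 1 to 19, X and Y (mouse GRCm38, mm10), which gave 69951 regions. A region that both Fast lists hold and both Fed lists lack is called Fast-only here, and the reverse Fed-only. These names describe lists of called peaks and not amounts of the mark: a region can miss a list because it fell under the peak caller's cutoff. There were 2221 Fast-only regions (3.18% of all regions) and 1256 Fed-only regions (1.8%). When the same number of top-scoring peaks, 32392, was taken from every list, 45473 regions resulted, of which 1773 were Fast-only (3.9%) and 1549 were Fed-only (3.41%). The larger number of Fast-only regions thus became nearly balanced once the lists had equal length. The regions were in part different ones. Of the 2221 Fast-only regions 872 (39.3%) were called Fast-only again, and of the 1256 Fed-only regions 662 (52.7%) were called Fed-only again.

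H3K27ac marks active promoters and enhancers, the DNA stretches that drive transcription of a gene from its start or from a distance. The crypt is the part of the intestinal lining where stem cells divide and their daughters begin to become absorptive, goblet, Paneth, tuft or hormone-secreting cells. In fasting, fatty acids become a main fuel, ketone bodies are made from them, insulin signalling falls and glucocorticoid hormones rise. The question of the study, from its title, was how fasting, the microbiome and chromatin are linked in intestinal regeneration.

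The 250 bases before the start site are shown for 6 genes whose promoters the results turn on, because they show how different the sequences under these regions were. Sequences are from RefSeq (GRCm38.p6), run 5′ to 3′ on the gene's strand, and have each CG dinucleotide in capitals. Olfm4, Fgfr4, Nupr1 and Gzma lay under Fast-only regions, Aplp1 under a Fed-only region, and Pdk4 under a peak of all 4 lists.
Olfm4 (chr14:80000052-80000301, plus strand): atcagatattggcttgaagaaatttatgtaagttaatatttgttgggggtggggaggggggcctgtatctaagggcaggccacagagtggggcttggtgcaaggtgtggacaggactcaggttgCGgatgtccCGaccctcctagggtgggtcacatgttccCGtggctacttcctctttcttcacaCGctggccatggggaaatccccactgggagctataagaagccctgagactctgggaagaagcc
Fgfr4 (chr13:55152568-55152817, plus strand): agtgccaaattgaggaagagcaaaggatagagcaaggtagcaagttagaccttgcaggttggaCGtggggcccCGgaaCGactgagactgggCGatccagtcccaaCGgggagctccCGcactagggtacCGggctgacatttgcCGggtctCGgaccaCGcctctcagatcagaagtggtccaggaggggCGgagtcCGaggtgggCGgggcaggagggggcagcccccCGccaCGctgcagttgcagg
Nupr1 (chr7:126625471-126625720, minus strand): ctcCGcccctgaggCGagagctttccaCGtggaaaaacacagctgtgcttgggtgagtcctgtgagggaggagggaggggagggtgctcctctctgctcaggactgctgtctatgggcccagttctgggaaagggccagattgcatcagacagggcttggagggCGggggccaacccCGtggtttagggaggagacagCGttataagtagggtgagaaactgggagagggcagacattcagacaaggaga
Gzma (chr13:113100982-113101231, minus strand): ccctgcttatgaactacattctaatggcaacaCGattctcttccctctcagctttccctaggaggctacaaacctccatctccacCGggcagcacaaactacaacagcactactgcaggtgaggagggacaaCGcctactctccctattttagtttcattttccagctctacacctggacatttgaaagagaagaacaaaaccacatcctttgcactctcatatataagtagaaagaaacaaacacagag
Aplp1 (chr7:30445583-30445832, minus strand): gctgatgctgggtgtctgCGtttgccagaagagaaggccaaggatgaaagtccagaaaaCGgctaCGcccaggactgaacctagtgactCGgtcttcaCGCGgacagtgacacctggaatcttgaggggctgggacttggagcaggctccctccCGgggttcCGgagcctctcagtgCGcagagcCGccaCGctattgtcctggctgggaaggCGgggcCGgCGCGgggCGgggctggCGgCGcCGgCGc
Pdk4 (chr6:5496279-5496528, minus strand): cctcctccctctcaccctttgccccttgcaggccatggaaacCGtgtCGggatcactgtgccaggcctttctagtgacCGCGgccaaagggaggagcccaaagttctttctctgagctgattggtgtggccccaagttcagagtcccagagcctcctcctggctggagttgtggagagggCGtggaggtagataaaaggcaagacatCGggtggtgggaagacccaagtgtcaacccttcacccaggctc

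The Gzma stretch held 3 CG dinucleotides, Olfm4 held 4, Nupr1 and Pdk4 held 6 each, Fgfr4 held 15 and Aplp1 held 20. Over the promoter table (32851 stretches, several for some genes), 168 stretches overlapped a Fast-only region, 103 a Fed-only region and 8624 a peak of all 4 lists. Their median CG count was 5 in Fast-only regions (quartiles 3 and 10.25), 11 in Fed-only regions (6 and 19) and 18 under peaks of all 4 lists (11 and 24), against 6 over all stretches. Promoters in Fast-only regions were thus close to the table at large in CG count, and those marked in every list had more; no test was made. The letters TGANTCA, the AP-1 motif (either strand), stood in 15 of the 168 Fast-only stretches (8.93%), in 2 of the 103 Fed-only stretches (1.94%), in 4.46% of those under peaks of all 4 lists and in 6.75% of all stretches. TGTGGTT, the RUNX motif, stood in 5.95%, 3.88%, 2.83% and 4.4%, in the same order, and the Gzma stretch held it as AACCACA starting 51 bases before the start site. TTTATNG, the CDX motif, stood in 11.3%, 8.74%, 5.77% and 9.81%. The TCF/LEF motif, CTTTGAT, stood in 1.79% of the Fast-only stretches, 2.91% of the Fed-only stretches, 1.99% of those under peaks of all 4 lists and 3.21% of all. The GATA motif, AGATAA, stood in 5.36% of the Fast-only stretches, 5.83% of the Fed-only stretches, 5.5% of those under peaks of all 4 lists and 9.99% of all. The FOXO motif, TGTTTAC, stood in 2.38%, 1.94%, 2.1% and 3.17%, in the same order. CAAAGTCCA (HNF4), the direct repeat bound by PPAR with its receptor partner and the full glucocorticoid receptor element were in 0 of the 168; these letters were in 0.384%, 0.0335% and 0.00913% of all stretches. All motifs were searched on both strands, and a match is only a match of letters.

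In peak number the 2 lists of a group differed more than the groups did. The Fed sample gave 32392 peaks in list 1 and 48242 in list 2, the Fast sample 56717 and 36737, so the groups overlapped. The log2 ratio of Fast over Fed, of mean log2 numbers, was 0.21 (exact permutation test over the 4 lists, two-sided, p = 0.67). Such a test has 6 arrangements and cannot give a p below 0.33. Covered length was 33.1 and 56.0 Mb in the Fed lists and 51.1 and 48.2 Mb in the Fast lists (exact permutation p = 1.0), the log2 ratio being 0.21. The share of peaks within 1 kb of either end of a protein-coding gene was 29.4% and 23.3% in Fed and 20.8% and 25.3% in Fast, a difference of -3.27 percentage points (exact permutation p = 0.67). In the 21240 regions present in all 4 lists (30.4%), peak width in Fast over Fed differed by 0.08 on the log2 scale on average (exact permutation p = 1.0). Reads behind each list are unknown, and the list names describe the data as downsampled.

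**Figure D1:**
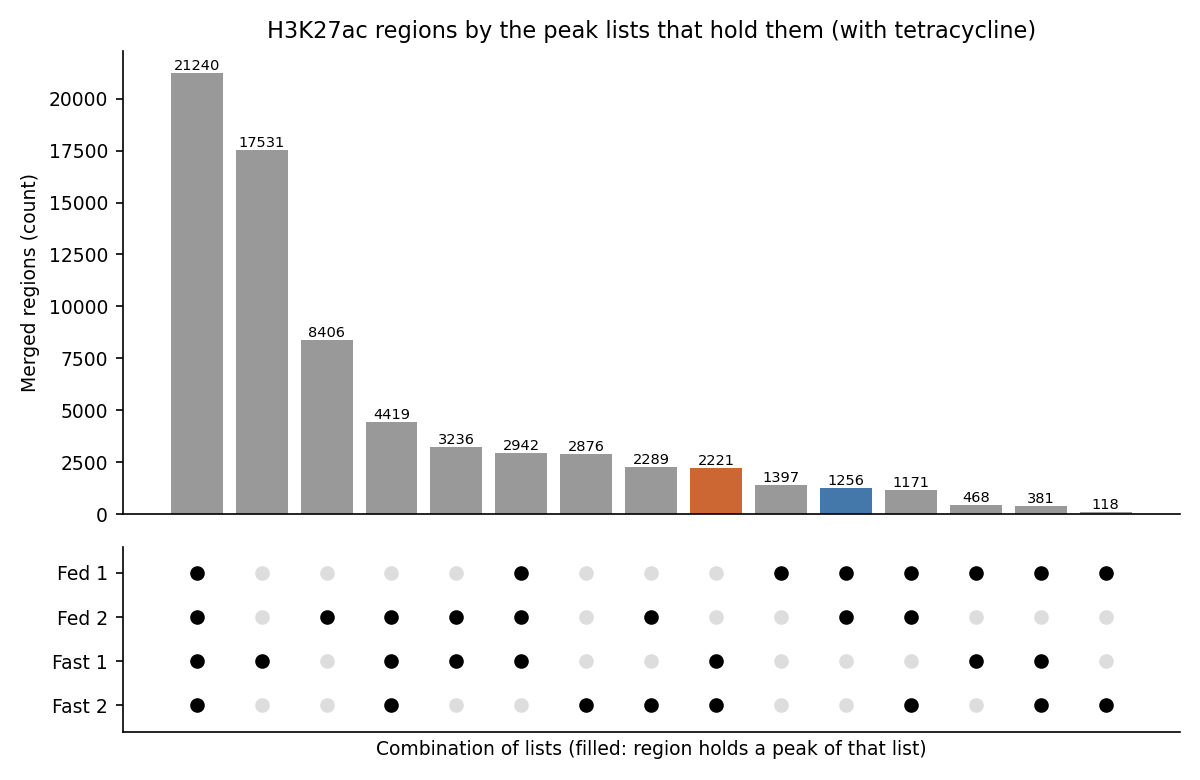
Number of merged H3K27ac regions (vertical axis) for each combination of the 4 peak lists with tetracycline; filled dots mark the lists that hold a peak. Regions in all 4 lists (21240) and in Fast 1 alone (17531) were the most numerous, and the Fast-only (2221, orange) and Fed-only (1256, blue) regions are the coloured bars.

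Most regions outside the common set were held by 1 list. There were 30210 such regions (43.2%), and 17531 of them were in Fast list 1 alone and 8406 in Fed list 2 alone. Fed list 1, the shortest, had 1397 of its own and Fast list 2 had 2876.  Leaving out a list loosens the rule: the Fast-only count became 2604 without Fed list 1, 6785 without Fed list 2, 5174 without Fast list 1 and 20038 without Fast list 2, and the Fed-only count became 9743, 2766, 4254 and 2501.

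Epithelial marker genes had a peak in every list. All 12 epithelial marker genes, among them Epcam, Krt8, Vil1 and Cdh1, had a peak within 1 kb of an end in every list, and the stromal and other-tissue list (20 genes) had 0, 1, 1 and 0 marked. Within gene bodies extended by 10 kb, Cdh1 and Krt18 of the epithelial list and Vwf and Pdgfrb of the stromal list held a Fast-only region. That of Krt18 lay 8114 bp outside the gene. In either list 0 genes held a Fed-only region. Immune cell markers differed: 2 and 6 of 16 genes were marked in the Fed lists and 8 and 9 in the Fast lists. With equal numbers of top peaks these counts were 2, 2, 4 and 9. Of the 16, 7 had no peak at an end in any of the 4 lists, among them the macrophage markers Adgre1 and Csf1r, the B cell marker Ms4a1 and the T helper marker Cd4. Another B cell gene, Cd79a, had one in all 4 (rank percentiles 24.3 and 50.9 in Fed, 67.0 and 70.3 in Fast), and Itgam, a myeloid gene, had one in Fed list 2 (47.3) and both Fast lists (23.9 and 53.0). Both were named after their values were seen. The T cell gene Cd3e had one in all 4 (rank percentiles 26.9 and 23.9 in Fed, 50.7 and 55.1 in Fast). The rank percentile is the place of the named peak by score, counted from the lowest, in percent of its list's peaks. Peaks with tied scores share their average place. Since the lists differ in length and in ties, a gap between percentiles of different lists does not show a change. Immune markers thus moved with feeding state in these lists, and their part in the results below was not tested. In lists without tetracycline 8 of the 16 were marked in each Fed and in each Fast list.

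Fast-only regions lay mainly away from gene ends, as did the regions as a whole. Of the 2221, 221 (9.95%) were within 1 kb of a gene end, 1045 (47.1%) were inside a gene away from its ends and 955 (43.0%) were between genes. Fed-only regions had 11.9%, 52.8% and 35.3% in these classes, and the regions of all 4 lists had 35.1%, 37.5% and 27.4%. Over all regions the shares were 18.4%, 46.3% and 35.3%. Regions held by 1 list had 7.71%, 51.3% and 41.0%, so a low share at gene ends was not particular to Fast-only or Fed-only regions. Fast-only regions had a median width of 909 bp (quartiles 740 and 1104), Fed-only regions 811 bp and regions of all 4 lists 1662 bp, and width in part follows from merging more lists. Their peaks were of low to middle rank: the median rank percentile of Fast-only regions was 41.2 in Fast list 1 and 24.2 in Fast list 2, and that of Fed-only regions was 18 in Fed list 1 and 34.2 in Fed list 2. Both classes were spread over the genome: across the autosomes and X, between 2.52% (chromosome 14) and 3.89% (chromosome 12) of a chromosome's regions were Fast-only, and between 1.4% (chromosome 16) and 2.18% (chromosome 17) were Fed-only.

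**Figure D2:**
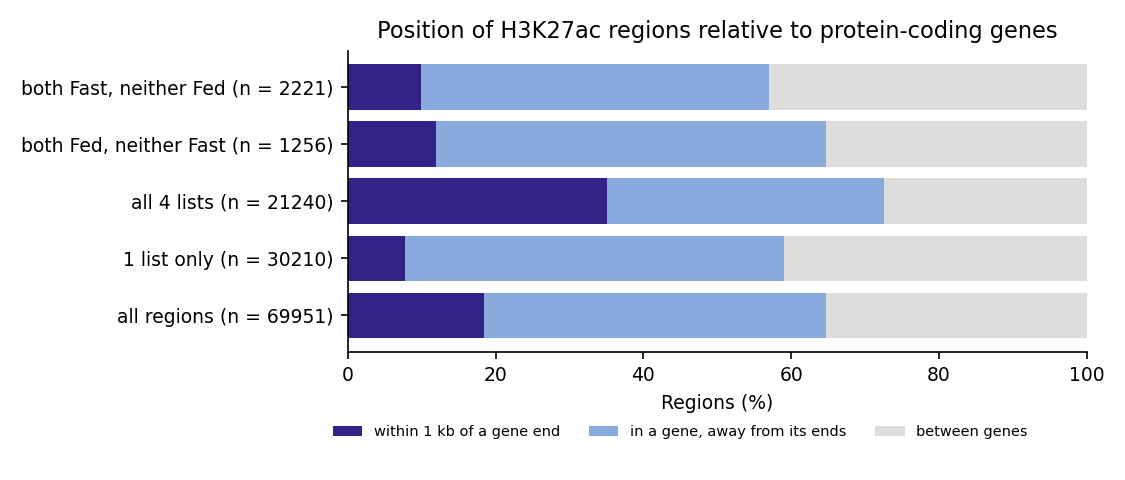
Share of regions (horizontal axis, percent) within 1 kb of a gene end, inside a gene away from its ends, or between genes, for each class of region. Fast-only (9.95%) and Fed-only (11.9%) regions are rarely at gene ends, against 35.1% of the regions in all 4 lists, 7.71% of those held by 1 list and 18.4% of all regions.

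The H3K27ac lists of mice without tetracycline were not used to choose the regions and give a separate reading of them. A peak lay on 21.6% and 47.1% of the Fast-only regions in Fed lists 1 and 2 without tetracycline, and on 60.3% and 76.4% in the Fast lists. The groups did not overlap, and the difference was 34.0 percentage points (exact permutation test over these 4 lists, two-sided, p = 0.33, the smallest it can give). Over all regions the shares were 41.1% and 56.8% in Fed and 47.4% and 60.3% in Fast. Fed-only regions had a peak in 34.6% and 69.0% of cases in Fed and 27.9% and 56.4% in Fast, a difference of -9.63 points with overlapping lists (exact permutation p = 0.67).

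The lists without tetracycline also differed in length, the Fast lists being the longer, so they were cut to the same number of top peaks (36340), an alternative chosen after the data were seen. Fast-only regions then had a peak in 26.9% or fewer cases in the Fed lists (21.6% and 26.9%) and in 37.8% and 53.7% in the Fast lists. Fed-only regions had 34.6% and 47.9% in Fed and 10.4% and 30.3% in Fast. Each class thus had the higher share in both lists of its own feeding state (differences of 21.5 and -20.9 points, exact permutation p = 0.33 for each). Over all regions the shares were 41.1% and 47.2% in Fed and 34.1% and 47.8% in Fast.

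**Figure D3:**
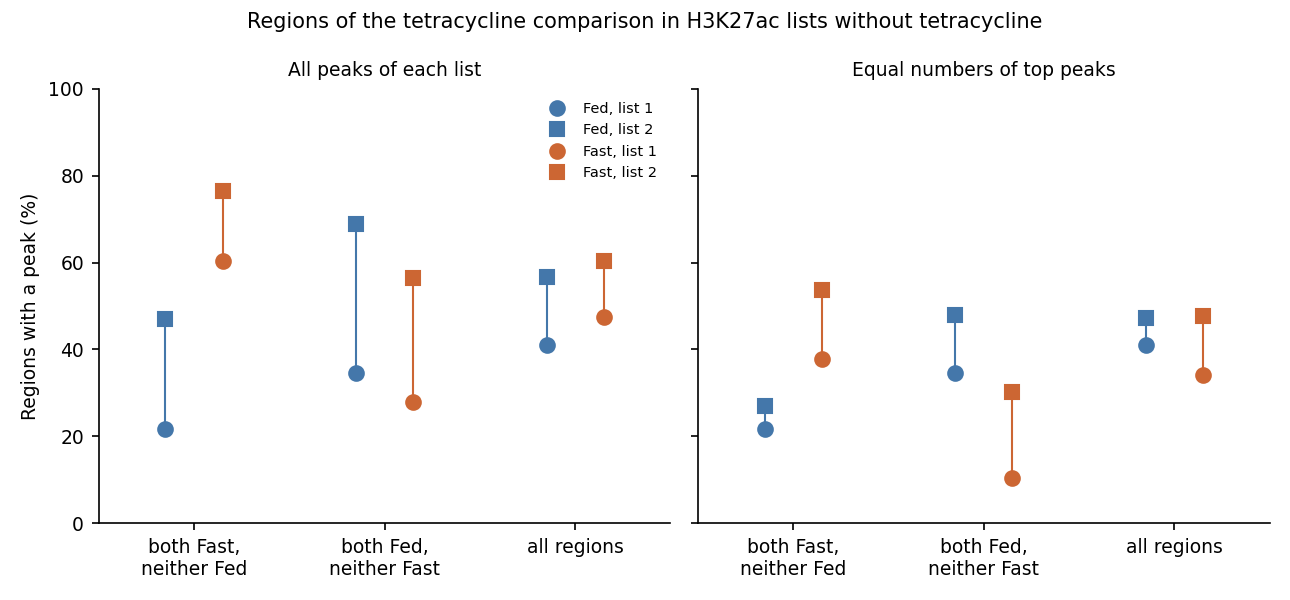
Share of regions (vertical axis, percent) that hold a peak in each H3K27ac list of mice without tetracycline, with all peaks (left) and with 36340 top peaks per list (right); circles are lists 1 and squares lists 2. Fast-only regions sit higher in Fast (60.3% and 76.4%) than in Fed (21.6% and 47.1%), and Fed-only regions separate by feeding state only at equal list length.

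Counted region by region, 472 of the 2221 Fast-only regions (21.3%) were also Fast-only without tetracycline, and 34 (1.53%) showed the opposite pattern. Among all regions these shares were 3.68% and 1.57%. Of the 1256 Fed-only regions, 100 (7.96%) had the Fed-only pattern without tetracycline, where it held for 1.57% of all regions, and 33 (2.63%) had the opposite. In 191 Fast-only regions (8.6%) and 179 Fed-only regions (14.3%) none of the 4 lists without tetracycline had a peak. Over all regions this held for 19662 (28.1%), with 60.5% of the regions held by 1 list and 0.127% of those in all 4 lists. Both classes need a peak in 2 lists, so their lower shares cannot be told apart from an effect of that rule.

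H3K9ac, an acetylation mark found chiefly at active promoters, was less often present. In the H3K9ac lists with tetracycline a peak lay on 5.04% and 11% of the Fast-only regions in Fed and on 20.9% and 18.4% in Fast (difference 11.6 points, exact permutation p = 0.33). The H3K9ac lists ranged from 24643 peaks in Fed list 1 to 97764 in Fast list 1. Cut to 24643 top peaks each, they gave 5.04% and 4.5% in Fed and 3.29% and 7.61% in Fast, a difference of 0.68 points (exact permutation p = 1.0). For Fed-only regions the difference was 2.07 points with all peaks (p = 0.67, exact permutation) and -6.61 with equal numbers (p = 0.33). Over all regions the H3K9ac shares were 22.1% and 27.2% in Fed and 31.2% and 24.9% in Fast with all peaks, and 22.1% and 19.4% in Fed and 11.4% and 16.4% in Fast with equal numbers. At equal list length the groups thus overlapped at Fast-only regions, and Fed was the higher in both lists at Fed-only regions and over all regions alike. In 1347 Fast-only regions (60.6%) no H3K9ac list with tetracycline had a peak, against 54.1% of Fed-only regions and 50.9% of all regions.

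The strongest Fast-only regions, ranked by their mean percentile in the Fast lists, are named with their nearest gene, which need not be the gene they act on. The first was chr10:59969511-59971450 (percentiles 86.7 and 89.2), 15959 bp from Anapc16, which encodes a subunit of the anaphase-promoting complex, and in the same cluster as Ddit4. It was present without tetracycline in Fed list 2 and both Fast lists. The region at chr4:97465536-97466659 (93.2 and 77.5) lay 111407 bp from Nfia, a nuclear factor I transcription factor, and it was Fast-only again without tetracycline. The region at chr13:29033985-29035346 (89.0 and 79.5) was 80286 bp from Sox4, a transcription factor of progenitor cells, and that at chr16:25584217-25585594 (90.3 and 68.7) was 98169 bp from Trp63, a p53 family member. Both had a peak in Fed list 2 and in both Fast lists without tetracycline. The others of the first 10 were nearest Tmem50a, Sh3tc2, Ltbp2, Fancl, Tln2 and Arhgef28.

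The strongest Fed-only regions were ranked in the same way, by their mean percentile in the Fed lists. The first, chr16:10468221-10469490 (percentiles 69.5 and 70.6 in the Fed lists), was 10524 bp from Ciita, the regulator that switches on MHC class II genes, and had a peak in all 4 lists without tetracycline. A region in Dnajc13 (chr9:104200737-104201964, 65.9 and 67.2), which encodes an endosomal co-chaperone, was in both Fed and neither Fast list without tetracycline as well. The others of the first 10 were nearest Uso1, Dis3l2, Sulf2, Entpd8, Trub2, St14, Mcoln1 and Rmdn3. Only 136 of the 2221 Fast-only regions (6.12%) and 14 of the 1256 Fed-only regions (1.11%) met their rule under each of the 6 alternatives that kept all 4 lists (equal numbers of top peaks, the upper 0.5 by score, a width of at least 500 bp, an overlap of 0.5, bridged gaps and merging over 8 lists). Among the 136, 42 (30.9%) had the Fast-only pattern without tetracycline, and 1 of the 14 (7.14%) had the Fed-only pattern. They include 9 of the first 10 Fast-only regions, all but the one near Anapc16.

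Runs of neighbouring regions were counted in both classes. With gaps under 50 kb, 676 of the 2221 Fast-only regions formed 293 runs of at least 2 regions, 64 of which had 3 or more. Of the 1256 Fed-only regions, 233 formed 108 runs, 15 with 3 or more. Whether these numbers exceed what the number and density of regions give was not tested. The largest Fast-only runs were 6 regions in Thada (chr17:84243993-84333624) and 6 beside Chd7 (chr4:8837508-8955294), a chromatin remodeller. Their spans held 11 and 13 regions of any class. Without tetracycline the Thada regions had 5 and 5 peaks in the Fast lists and 4 and 4 in the Fed lists, and the Chd7 regions 4 and 6 against 3 and 2. A run of 5 spanned Dnajb12, Ddit4, Anapc16 and Ascc1 (chr10:59872774-60043382), among 28 regions of any class, 6 of them in all 4 lists. Ddit4 restrains mTORC1, the growth-promoting kinase complex, and is a known glucocorticoid target. Without tetracycline all 5 of its regions had a peak in each Fast list, 0 in Fed list 1 and 1 in Fed list 2. A run of 5 lay near Glul, which encodes glutamine synthetase, and Zfp648 (chr1:154032455-154119066), with 5 and 5 regions marked in the Fast lists without tetracycline and 0 and 2 in the Fed lists. A run of 4 lay beside Zfp703 (chr8:26793822-26845202), with 3 and 4 marked in Fast and 0 and 2 in Fed without tetracycline. The spans of the Glul and Zfp703 runs held 8 and 10 regions of any class. Among Fed-only runs, the largest were 4 regions around Borcs5 and Dusp16 (chr6:134694133-134790679) and 4 in Arhgap42 (chr9:9208930-9262915). Their spans held 22 and 10 regions of any class. The Borcs5 and Dusp16 regions had 1 and 2 peaks in the Fed lists and 1 and 2 in the Fast lists without tetracycline, and the Arhgap42 regions had 0 and 3 in the Fed lists and 0 and 2 in the Fast lists without tetracycline.

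Genes were counted at their ends and over their bodies. At gene ends, 168 of 21883 protein-coding genes (0.768%) had a peak within 1 kb in both Fast lists and in none of the Fed lists, and 100 (0.457%) the reverse; with equal numbers of top peaks these were 168 (0.768%) and 188 (0.859%), of which 73 and 55 were in the first sets. Without tetracycline, 21 of the 168 genes had the same call and 1 the opposite, and 3 of the 100 had the same and 4 the opposite. Within the gene body extended by 10 kb at each side, 1570 genes (7.17%) held a Fast-only region and 1129 (5.16%) a Fed-only region. A longer body has more room for a region, so the share of a list's own merged regions is given beside this second share. That region share is to be read against 3.18% (Fast-only) and 1.8% (Fed-only) of all regions. With equal numbers of top peaks 6.03% and 6.49% of all genes held a Fast-only and a Fed-only region. The gene lists were not tested.

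Ketone body genes had Fast-only regions and no Fed-only region. Hcar2, a receptor for the ketone body beta-hydroxybutyrate and for niacin (chr5:123863570-123865516), had no end peak in either Fed list and percentiles of 54.3 and 16.0 in Fast lists 1 and 2. The call was the same without tetracycline and with equal numbers of top peaks. Bdh2, a dehydrogenase, had no end peak in any of the 4 lists and a Fast-only region inside the gene (34.1 and 40.1), with a peak in Fast list 2 alone without tetracycline. Of the 12 listed genes 4 held a Fast-only region and 0 a Fed-only region; 4 of the list's 52 merged regions (7.69%) were Fast-only. The 4 regions had 0 and 1 peaks in the Fed lists and 3 and 4 in the Fast lists without tetracycline.

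Fatty acid oxidation genes were marked in both states: 24 or 25 of 25 had an end peak in each of the 4 lists, and 0 were called at an end in either direction. Cpt1a, which admits long-chain fatty acids to mitochondria, stood at percentiles 96.4 and 97.2 in Fed and 99.6 and 99.5 in Fast. Pdk4, which turns glucose oxidation down, stood at 67.5 and 93.4 in Fed and 99.2 and 96.6 in Fast, and Angptl4, an inhibitor of lipoprotein lipase, at 52.1 and 74.0 and at 61.4 and 97.3. Each was thus marked in every list. The percentile 97.2 in Fed list 2 is that of 2370 peaks tied at the score 3100, as 99.6 and 99.5 are those of 340 and 301 tied peaks in Fast lists 1 and 2, so Cpt1a cannot be ranked further. Within the bodies extended by 10 kb, 4 of the 25 held a Fast-only region, Ehhadh of peroxisomal oxidation at the highest rank (63.6 and 42.5). A region inside Hadhb was counted for both Hadha and Hadhb. A Fed-only region was held by 2, Acadvl among them, whose region lay inside the gene Dvl2 at a start site. Of the list's 131 regions 3.05% were Fast-only and 1.53% Fed-only, near the shares of all regions, and 3 genes held each kind with equal numbers of top peaks. The PPAR receptors and coactivators, which drive these genes, had 3 of 15 genes with Fast-only and 5 with Fed-only regions, with 1.83% and 3.66% of their 164 regions, and 2 and 6 genes with equal numbers of top peaks; Ncoa2 and Rxra had only Fed-only regions. Ppara had an end peak in all 4 lists.

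The glucocorticoid-related genes Zbtb16, Fkbp5 and Tsc22d3 had Fast-only regions that recurred without tetracycline. In the list of insulin, FoxO and glucocorticoid response genes (24), 5 held a Fast-only and 3 a Fed-only region. Of its 162 merged regions 4 (2.47%) were Fed-only and 9 (5.56%) were Fast-only. Those 9 had 2 and 1 peaks in the Fed lists and 9 and 9 in the Fast lists without tetracycline. Among them 7 were also Fast-only without tetracycline, all in or by Zbtb16, Fkbp5 and Tsc22d3. Zbtb16, a transcription factor induced by glucocorticoids (chr9:48651797-48836225), held 4 of them, at chr9:48737007-48738105 (percentiles 58.4 and 82.3), chr9:48744753-48747018 (25.2 and 42.1), chr9:48826098-48827312 (58.5 and 9.18) and chr9:48835451-48836922 (71.5 and 39.1). Each of the 4 was Fast-only without tetracycline too. At its end, Zbtb16 was unmarked in Fed with either mark and marked in both Fast lists with H3K27ac and with H3K9ac.

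**Figure D4:**
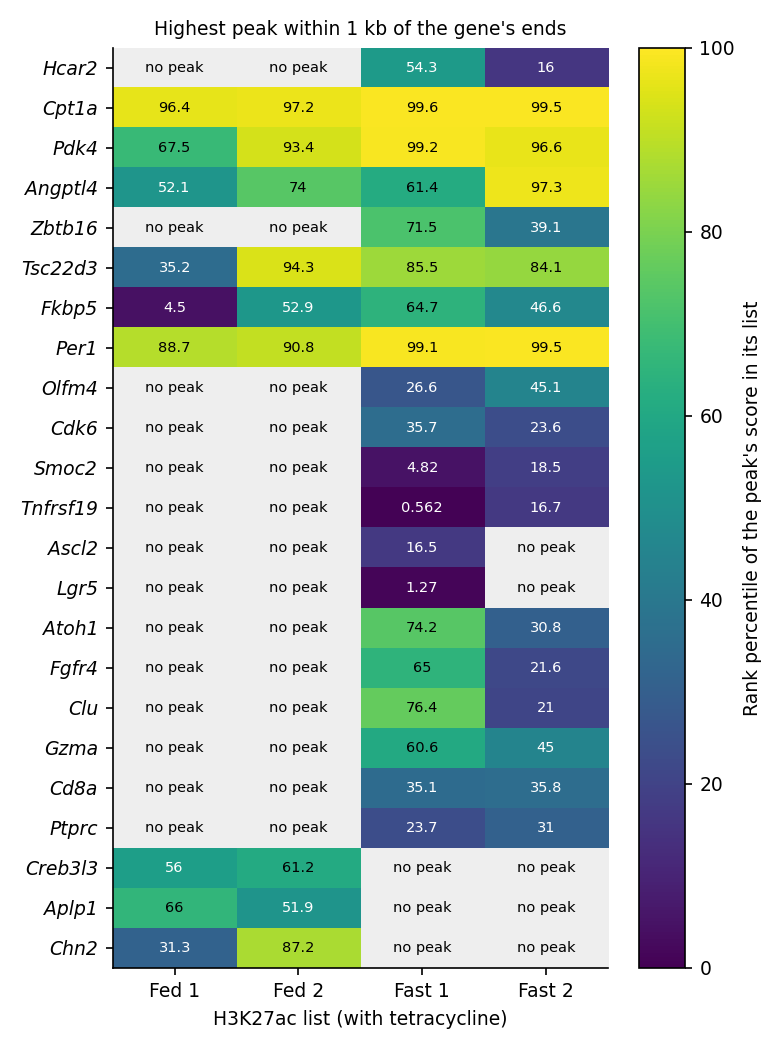
Rank percentile of the highest-scoring H3K27ac peak within 1 kb of either end of each gene (rows) in the 4 lists with tetracycline (columns); grey cells have no peak. Hcar2, Zbtb16 and Olfm4 have peaks in the Fast lists alone, Cpt1a and Per1 are near the top of every list, and Creb3l3 has the reverse pattern.

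Fkbp5, a co-chaperone of the glucocorticoid receptor, had a Fast-only region 9191 bp from the gene (chr17:28495340-28496660, 76.9 and 50.6) that was also Fast-only without tetracycline. Tsc22d3, a glucocorticoid-induced regulator named after its values were seen, held 2 such regions (chrX:140544711-140545538 and chrX:140567345-140568531) and 1 Fed-only region without any peak in the lists without tetracycline. Per1, a clock gene that glucocorticoids induce, stood at percentiles 88.7 and 90.8 in Fed and 99.1 and 99.5 in Fast. Sgk1, another such target and likewise named after its values were seen, had no end peak in Fed list 1, 28.3 in Fed list 2, and 91.1 and 90.6 in Fast. The receptor gene itself, Nr3c1, had an end peak in Fast list 1 alone. Igf1r and Txnip had the other Fast-only regions, and Pck1 and Foxo3 had Fed-only ones. With equal numbers of top peaks 7 of the 24 genes held a Fast-only and 3 a Fed-only region.

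Crypt stem cell genes held Fast-only regions at low to middle ranks. End peaks were found for 10 and 11 of 20 in the Fed lists and 17 and 16 in the Fast lists, where immune markers also differed (2 and 6 against 8 and 9 of 16). With equal numbers of top peaks the stem cell counts were 10, 11, 10 and 14, so the groups then overlapped. The end calls of Olfm4, Cdk6, Smoc2 and Tnfrsf19, 4 of 20, were Fast-only with all peaks, and 0 were with equal numbers. Olfm4, a stem cell marker (chr14:80000302-80023141), had no peak in Fed and percentiles of 26.6 and 45.1 in Fast at the promoter printed above, and without tetracycline a peak in Fed list 2 and both Fast lists. Cdk6 had 35.7 and 23.6, Smoc2 had 4.82 and 18.5, and Tnfrsf19 had 0.562 and 16.7. Lgr5, the best known marker of these cells, had an end peak in Fast list 1 alone, at percentile 1.27, and Ascl2, its transcriptional partner, likewise in Fast list 1 alone, at 16.5.

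In the extended bodies of the stem cell genes, 14 of 20 held a Fast-only region and 1, Lrig1, a Fed-only one. These genes are long (median 70381 bp, against 17170 bp for all genes), but 16 of their 159 merged regions (10.1%) were Fast-only and 1 (0.629%) was Fed-only, against 3.18% and 1.8% of all regions. The highest ranks were those beside Rnf43 (61.7 and 68.4), a Wnt receptor antagonist, in Axin2 (68.8 and 57.9), a Wnt target, in Ephb2 (62.8 and 51.3), a receptor that positions crypt cells, and by Ephb3 (39.0 and 40.6). With equal numbers of top peaks 8 of 20 genes (40.0%) held a Fast-only region, where 6.03% of all genes did, and 2 a Fed-only one, where 6.49% did. Without tetracycline the 16 regions had 3 and 10 peaks in the Fed lists and 11 and 16 in the Fast lists, and 4 were Fast-only there too. Leaving out Fast list 2 gave 17 of 20 genes, where the share of all genes was 41.6%.

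**Figure D5:**
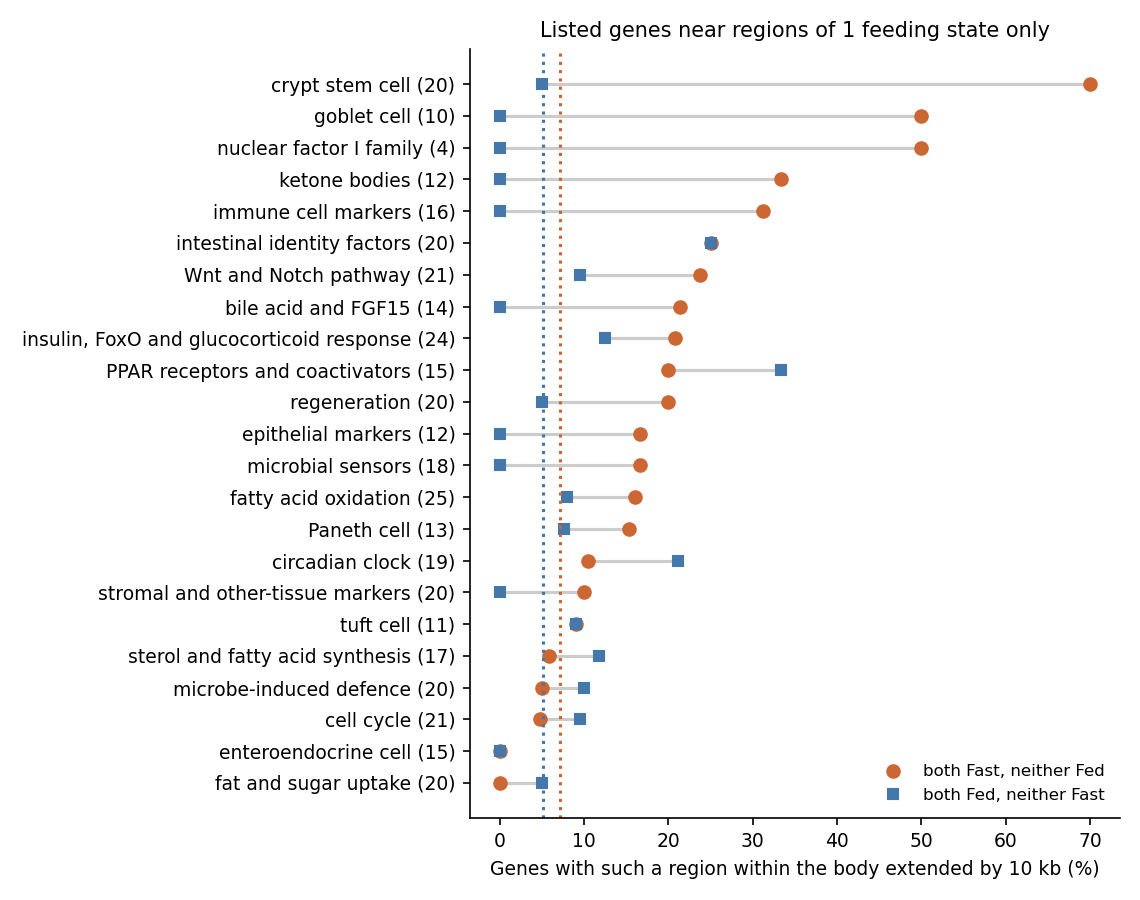
Share of each list's genes (horizontal axis, percent; number of genes in brackets) with a Fast-only region (orange circles) or a Fed-only region (blue squares) within the gene body extended by 10 kb; dotted lines are the shares over all genes, 7.17% and 5.16%. Crypt stem cell genes have the highest Fast-only share (70.0%) and a Fed-only share of 5.0%. The lists differ in gene length, which these shares do not allow for.

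Secretory lineages are described by their marker genes. Of 10 goblet cell genes, 5 held a Fast-only and 0 a Fed-only region, and the counts were 5 and 0 with equal numbers of top peaks. With all peaks these were Atoh1, Tff3, Fcgbp, Agr2 and Clca1. Atoh1, the transcription factor that sets the secretory fate, had an end peak at 74.2 and 30.8 in Fast and none in Fed, and without tetracycline was marked at an end in all 4 lists. Of 42 goblet regions 5 (11.9%) were Fast-only; 0 of these had the Fast-only pattern without tetracycline. Paneth cell genes were little marked (0, 1, 2 and 2 of 13), and 3 of their 15 regions were Fast-only and 1 Fed-only, in Itln1; with equal numbers of top peaks 1 gene held each kind. The stress gene Nupr1, counted in that list, had end percentiles of 37.7 and 33.8 in Fast and no peak in Fed. A pair of Fast-only regions lay by Mmp7, a Paneth cell protease (chr9:7681797-7682949 and chr9:7689353-7690280), and both were Fast-only without tetracycline too. Of 15 enteroendocrine genes 0 held a region of either kind, and 1 a Fed-only region with equal numbers of top peaks. Of 20 genes of fat and sugar uptake, 0 held a Fast-only region and 1, Cideb, a Fed-only one (0.629% of 159 regions); with equal numbers of top peaks 0 and 3 did. Among 11 tuft cell genes there was 1 of each, Ptgs1 and Trpm5 (3.85% of 26 regions each), and 0 with equal numbers of top peaks.

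Genes of damage repair had regions of both kinds. Of 20 regeneration genes 4 held a Fast-only region and 1, Il33, a Fed-only region (8.93% and 3.57% of 56 regions), but 2 and 3 did with equal numbers of top peaks. Clu, a marker of the revival state of damaged crypts (chr14:65968483-65981548), had no end peak in Fed and 76.4 and 21.0 in Fast, also with equal numbers of top peaks, but was marked in all 4 lists without tetracycline. Tead1, a partner of YAP, held a pair of Fast-only regions. Ly6a, a marker of the fetal-like state, had no end peak in any of the 4 lists.

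Bile acid and FGF15 genes had 3 of 14 with a Fast-only region and 0 with a Fed-only region, and 3 and 2 with equal numbers of top peaks, where Nr1h4, the bile acid receptor, was Fed-only at an end. Of the list's 83 regions 3.61% were Fast-only, near the 3.18% of all regions. Fgfr4, the receptor for FGF15 (chr13:55152818-55168759), had no end peak in Fed and 65.0 and 21.6 in Fast at the promoter printed above. It kept its call with equal numbers of top peaks and was Fast-only without tetracycline as well. Nr1i2, the pregnane X receptor, and Abcc2, an export pump, held the others. Fgf15 itself had no peak in its extended body in any list.

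Intestinal identity factors were marked in both states (17 to 19 of 20), with 5 genes on each side and 6 and 7 with equal numbers of top peaks. Of the list's 194 regions 3.61% were Fast-only and 2.58% Fed-only. Cdx2 had 3 regions in its extended body, all in all 4 lists, and Hnf4a had 7 regions in all 4 lists and 1 Fed-only region. Nr5a2, a nuclear receptor, held a Fast-only region (52.0 and 38.9). Creb3l3, a transcription factor of lipid metabolism in liver and gut (chr10:81084329-81098872), was Fed-only at an end, at percentiles 56.0 and 61.2, also with equal numbers of top peaks. The region behind this call (chr10:81081979-81083871) lay inside the gene Thop1, and the start site of Creb3l3 was not called Fed-only. The H3K9ac call at the ends of Creb3l3 was the same, with a peak in both Fed lists and neither Fast list with tetracycline. Without tetracycline an H3K27ac peak lay within 1 kb of an end in Fed list 2 and Fast list 2. The whole region in Thop1 had an H3K27ac peak in all 4 lists without tetracycline. In the nuclear factor I family Nfib and Nfix held a Fast-only region each (3.64% of 55 regions), and 0 of the 4 genes a Fed-only one.

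Clock genes held regions of both kinds. Of 19 clock genes 2 held a Fast-only and 4 a Fed-only region, and the counts were the same with equal numbers of top peaks. Of the list's 132 regions 1.52% were Fast-only and 3.79% Fed-only. Npas2, Nr1d1 and Nfil3 had only Fed-only regions, Rora only a Fast-only one, and Bhlhe40 both. The Bhlhe40 pair, chr6:108665171-108666249 (Fed-only) and chr6:108670480-108671385 (Fast-only), kept both patterns without tetracycline. Cell cycle genes had 1 of 21 Fast-only (Cdkn1b, an inhibitor of cell cycle kinases) and 2 Fed-only (Cdkn1a and E2f2), 1.35% and 2.7% of 74 regions. Of 21 Wnt and Notch genes 5 had Fast-only and 2 Fed-only regions (3.94% and 1.57% of 127 regions, near the shares of all regions), and 3 and 2 did with equal numbers of top peaks. The Notch receptors Notch1 and Notch2 and the ligand Dll4 were among the 5. Sterol and fatty acid synthesis had 1 of 17 and 2 of 17 (2.5% and 1.67% of 120 regions), and Acaca, the first enzyme of fatty acid synthesis, held 3 Fast-only regions and 1 Fed-only region.

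Genes by which the gut meets and senses microbes were counted as 2 lists. Of 20 genes of microbe-induced defence 1 held a Fast-only and 2 a Fed-only region, Duox2 and Ciita (1.82% and 3.64% of 55 regions), and 0 were called at an end; with equal numbers of top peaks 1 and 0 did. Of 18 microbial sensors, Tlr5, Nod1 and Hcar2 held a Fast-only region and 0 a Fed-only one (4.76% of 63 regions). With equal numbers of top peaks 5 of the 18 (27.8%) held a Fast-only region, where 6.03% of all genes did, and 0 a Fed-only one. Reg3g, an antimicrobial lectin, had a region in Fast list 2 alone, and Lyz1, the Paneth cell lysozyme, had end peaks in Fed list 2 and Fast list 1.

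Lymphocyte genes were among the Fast-only calls at gene ends. Gzma, a granzyme of cytotoxic lymphocytes (chr13:113093824-113100981), had no peak in Fed and percentiles of 60.6 and 45.0 in Fast. Cd8a, a coreceptor of cytotoxic T cells, had 35.1 and 35.8, and Ptprc, which encodes CD45, had 23.7 and 31.0. Sh2d2a, a T cell adaptor among the first 10 end calls, had 72.7 and 59.7. Fasl, Txk, Cd69, Klrd1, Ccl3, Ccl4 and Jak3, named after their values were seen, were also Fast-only at an end. With equal numbers of top peaks Gzma, Sh2d2a and Txk kept the end call, and Cd8a, Ptprc, Fasl, Cd69 and Klrd1 did not. The end calls of the 16 immune markers were then Gzma and Cd3d. Of these markers 5 held a Fast-only region in the extended body with all peaks and 2 with equal numbers, and 0 a Fed-only one. Of the 39 merged regions at the immune marker genes, 7 (17.9%) were Fast-only and 0 Fed-only. Those 7 had 5 and 6 peaks in the Fed lists and 3 and 3 in the Fast lists without tetracycline, and 1 was Fast-only and 2 Fed-only there. The 7 immune regions thus had no higher number in Fast without tetracycline. Fast-only regions of the ketone list and of the insulin, FoxO and glucocorticoid list had one. Other lists varied, and the 5 Fast-only regions of the Wnt and Notch list had 2 and 4 in Fed and 3 and 3 in Fast. These contrasts rest on few regions and were not tested.

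Among the other genes with the highest-ranking end calls, Dct (65.6 and 78.8), an enzyme of melanin synthesis, Tiam1 (71.7 and 71.2), an activator of the GTPase Rac, Mroh7 (59.2 and 76.4), Zfp947 (62.3 and 53.1), Gm6958 (71.1 and 40.3) and LOC115488789 (83.6 and 74.3) were Fast-only, also with equal numbers of top peaks. Sult1b1, a sulfotransferase, was Fast-only at 31.2 and 97.0 and not with equal numbers. Npy2r, a neuropeptide Y receptor (71.9 and 28.0), Plekhb1 (64.7 and 35.3) and Scn2b, a sodium channel subunit (37.6 and 41.1), were Fast-only with and without tetracycline. On the Fed side, Tmem235 had the highest percentiles (83.5 and 92.7) and the opposite call without tetracycline, where it was marked in both Fast lists alone. Ttll8 (60.5 and 66.4), Ruvbl2 (60.5 and 59.8), Chn2 (31.3 and 87.2), Aplp1 (66.0 and 51.9), Cdk8 (44.8 and 71.7), Best1 (22.8 and 91.0) and Krtap5-3 (34.9 and 69.7) kept the Fed-only call with equal numbers, and Calcoco1 (75.7 and 30.1) did not. Cdk8, a kinase of the Mediator complex, and Chn2 were marked in all 4 lists without tetracycline. By number of regions, Rad51b held 6 Fast-only regions in 550979 bp, and Farp1 and Scfd2 held 4 each; on the Fed side Cracr2a, Tbc1d22a, Pak1, Tnik and Nckap5 held 3 each.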

How the data were processed

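Each deposited list gives the position of every peak, a MACS peak name and a score. The authors' score has no stated unit and a lowest value of 50, and it served here to order peaks inside 1 list. Lists were called per list and are described in their names as downsampled. Per the submitters' processing notes, FastQC, Bowtie and SAMtools were used with mm10; cutoffs and controls are not given in the sources used here. Depth is unknown, so no counting interval is given.

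Overlapping peaks (at least 1 bp) were merged with Python 3.11.15, numpy 2.4.6 and pandas 2.3.3; figures used matplotlib 3.10.9. Positions were set against 21883 protein-coding genes of RefSeq (GRCm38.p6), whose table gives no strand, so both ends were used. Promoters of 17491 of them were in the promoter table. Group differences were tested by exact permutation of the list labels; gene lists (23) were counted without a test. Named were the first 10 regions and end genes and the first 5 body genes and runs per direction, 25 fixed genes, up to 4 members of a gene list by rank, and regions kept by every alternative. The members, lists and fixed genes were chosen with earlier results of these data known. The merging was tested on simulated lists. A few items that the naming rule picks are not reported here.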

Additional observations from a re-analysis of the deposited data

How the results depend on the processing

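Each signed difference kept its direction under the alternatives that kept all 4 lists, except the H3K9ac difference at Fed-only regions (2.07 points), which became -0.194 with equal numbers of top peaks in the H3K27ac lists and -6.61 with equal numbers in the H3K9ac lists. With the upper 0.5 of each list by score there were 1297 Fast-only and 391 Fed-only regions, and with equal numbers of top peaks 168 genes were Fast-only and 188 Fed-only at an end, in place of 168 and 100, so the excess of Fast-only genes turned over. Leaving out 1 list moved the log2 ratio of peak number between -0.106 and 0.521 (negative without Fed list 1, at -0.0798, and without Fast list 1), of covered length between -0.175 and 0.585 (negative without Fed list 1) and of peak width between -0.0817 and 0.265 (negative without Fed list 1 and, at -0.0158, without Fast list 2), and the gene-end share between -6.32 and -0.216 points. It gave 2604 to 20038 Fast-only and 2501 to 9743 Fed-only regions, and 234 to 886 and 206 to 1042 genes at an end, since absence from 1 list or presence in 1 list then met the rule. The difference in lists without tetracycline ran from 10.7 to 33.0 points for Fast-only and from -8.26 to -1.69 for Fed-only regions, and that in H3K9ac from 4.64 to 11.7 and from 0.646 to 2.82. With the list number as a replicate block, the log2 ratios stayed 0.208, 0.205 and 0.0828 and the gene-end share -3.27 (exact permutation p = 1.0 for each, 4 arrangements); the labels do not say that a number pairs lists. Start sites in place of gene ends, chosen after the data were seen, gave 112 and 74 genes. The cause of these shifts was otherwise not tested. Unknown depth and 2 lists a group limit all of these values.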
